A study of Mus musculus with 6 samples.

Results

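The 10 genes described here are transcription factors of adipocyte formation (Pparg, Ppard, Cebpa, Cebpb, Cebpd and Klf15) and genes of fatty acid uptake and transport (Lpl, Cd36, Fabp4 and Fabp5). They were chosen by symbol, with earlier results of these data known. Each Ensembl gene ID was matched after its version was removed, and all 10 were found among the 55335 genes of the deposited count table. The cells were mouse embryonic fibroblasts (MEFs), connective tissue cells taken from embryos and grown as an adherent line, with a wild-type (WT) genotype in every sample. Confine cells had been seeded on a transwell membrane with 3 μm pores and were collected after 15 h if they had reached the other side, and Ctrl cells were the parental MEFs. The labels give all samples the same culture medium with serum, and name no adipogenic hormone mix. The media above and below the 3 μm membrane are not given in the sources used here, and the study's migration assay on wider pores had serum only below, so passage and a difference in serum or attachment cannot be told apart. The migrating group was a selection from the parental population, so a change within cells and a choice among cells cannot be told apart in these bulk samples, nor can fewer cells of a type and less RNA per cell.

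The table holds 3 columns for Ctrl and 3 for Confine. Since the first and second Confine columns held the same 55335 values, they entered every result as 1 library, named Confine replicate 2, beside Confine replicate 3 and 3 Ctrl libraries. Total counts ran from 22287210 to 32537550 per library. The labels do not say whether libraries of a group came from separate cultures, so p-values measure only the spread between these libraries, which may be technical. Levels are given as normalized CPM, that is, counts scaled to library size (CPM) and adjusted by edgeR's TMM factors, and a floor of 3 counts corresponds to 0.101 to 0.128 normalized CPM.

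The fibroblast label was checked with 12 marker genes, whose summed level was 8763 to 9629 normalized CPM in Ctrl and 15746 to 16520 in Confine. Of these markers, 9 were tested, 5 were higher in Confine and 1 was lower, while Thy1 and Lum did not exceed 2 counts in any library. Adipocyte markers were near absent. None of the 8 passed the filter on low counts, the highest count of any of them was 7, their sum was 0.170 to 0.311 normalized CPM in Ctrl and 0.0794 to 0.135 in Confine, and Lep and Cidec were at 0 in every library.

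Fibroblasts can be driven to become fat cells by a cascade of transcription factors. C/EBPβ and C/EBPδ act early and switch on C/EBPα and PPARγ, which maintain each other and turn on the genes of lipid storage, and KLF15 is one of the factors that support this later stage. PPARs are nuclear receptors for fatty acids that bind DNA together with RXR. PPARγ is the central regulator of fat cells, and PPARδ is found in most tissues and is known for genes of fatty acid oxidation. Lipoprotein lipase (Lpl) frees fatty acids from circulating triglyceride, CD36 carries them into the cell, and FABP4 and FABP5 bind them in the cytosol.

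The promoters of Ppard and Pparg are shown first because these related receptors moved in opposite directions, Ppard up and Pparg down in Confine. Each sequence is the 250 bases before a transcription start, 5′ to 3′ on the strand of the gene, from RefSeq on GRCm38.p6, and capitals mark letters found on either strand. These are the GC box, spelled GGGCGG, and the CCAAT box, spelled as its name. They are also the TATA box, spelled TATAAA, and a C/EBP site, whose 8 letters are TTNNGCAA. No 2 matches overlapped in these windows. The windows lie at chr17:28232504-28232753 (+) for Ppard, and at chr6:115360894-115361143 (+), chr6:115362099-115362348 (+) and chr6:115421816-115422065 (+) for the starts of Pparg.
Ppard: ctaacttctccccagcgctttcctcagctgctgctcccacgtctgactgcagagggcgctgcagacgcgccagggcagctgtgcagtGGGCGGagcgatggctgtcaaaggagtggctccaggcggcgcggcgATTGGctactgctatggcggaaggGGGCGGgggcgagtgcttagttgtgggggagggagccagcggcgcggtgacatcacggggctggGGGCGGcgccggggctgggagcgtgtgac
Pparg, start a: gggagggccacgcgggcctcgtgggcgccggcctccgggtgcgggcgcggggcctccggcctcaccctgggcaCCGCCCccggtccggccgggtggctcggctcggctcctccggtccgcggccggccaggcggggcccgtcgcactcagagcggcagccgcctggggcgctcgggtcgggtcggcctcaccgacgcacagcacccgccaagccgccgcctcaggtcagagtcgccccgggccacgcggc
Pparg, start b: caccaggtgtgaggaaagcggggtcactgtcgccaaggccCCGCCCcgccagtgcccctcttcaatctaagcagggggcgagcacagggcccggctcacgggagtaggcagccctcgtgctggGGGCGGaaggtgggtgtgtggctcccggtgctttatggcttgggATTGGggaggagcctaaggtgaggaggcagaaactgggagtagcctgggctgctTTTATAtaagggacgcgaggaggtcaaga
Pparg, start c: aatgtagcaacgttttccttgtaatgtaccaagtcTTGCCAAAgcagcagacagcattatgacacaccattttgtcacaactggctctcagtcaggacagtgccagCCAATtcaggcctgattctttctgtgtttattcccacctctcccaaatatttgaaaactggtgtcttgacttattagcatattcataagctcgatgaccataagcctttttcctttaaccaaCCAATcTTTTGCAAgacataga

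The Ppard window was 69.6% G or C with 22 CpG dinucleotides, against a median of 52.4% and 6 over 32851 RefSeq promoter windows of the same length. The Pparg windows were not alike. Start a was 82.4% G or C with 38 CpG, start b 63.6% with 12, and start c 40.8% with 2. GC boxes numbered 3 in the Ppard window, 1 at start a, 2 at start b and 0 at start c, and 32.74% of all windows hold at least 1. CCAAT numbered 1 in the Ppard window, 0 at start a, 1 at start b and 2 at start c, and 33.85% of all windows hold it. The C/EBP letters TTNNGCAA were matched 2 times at start c and nowhere in the other printed windows, and 9.564% of all windows hold them. The TATA letters were matched 1 time, at start b, and 12.37% of all windows hold them. A match of letters is a description of the sequence. The gene-level counts do not tell which start of Pparg was read. RefSeq windows were matched for 6 of the 10 genes.

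Of the 10 genes, 7 passed edgeR's filter on low counts and were tested, and 3 (Cebpa, Cd36 and Klf15) were not. By edgeR's quasi-likelihood test at an adjusted p under 0.05, Ppard and Cebpd were higher in Confine, Pparg, Fabp5 and Lpl were lower, and Cebpb and Fabp4 did not pass. The share of all 15881 tested genes called by the same rule was 23.0%, of which 12.8% were higher and 10.2% lower. With the cutoff on fold change used in the study (an absolute log2 fold change above 1.5), Pparg and Lpl passed as lower and no member as higher, against 8% of all tested genes, or 3.11% lower and 4.89% higher. The groups did not overlap in normalized CPM for 5 of the tested members, against 49.5% of all tested genes, of which 25.9% had Confine above and 23.6% Confine below. Pparg passed the filter through its Ctrl libraries alone, so it could be tested only because it was higher there. Over the tested members the log2 fold change had a median of 0.090, and that of all tested genes was -0.0021.

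**Figure D1:**
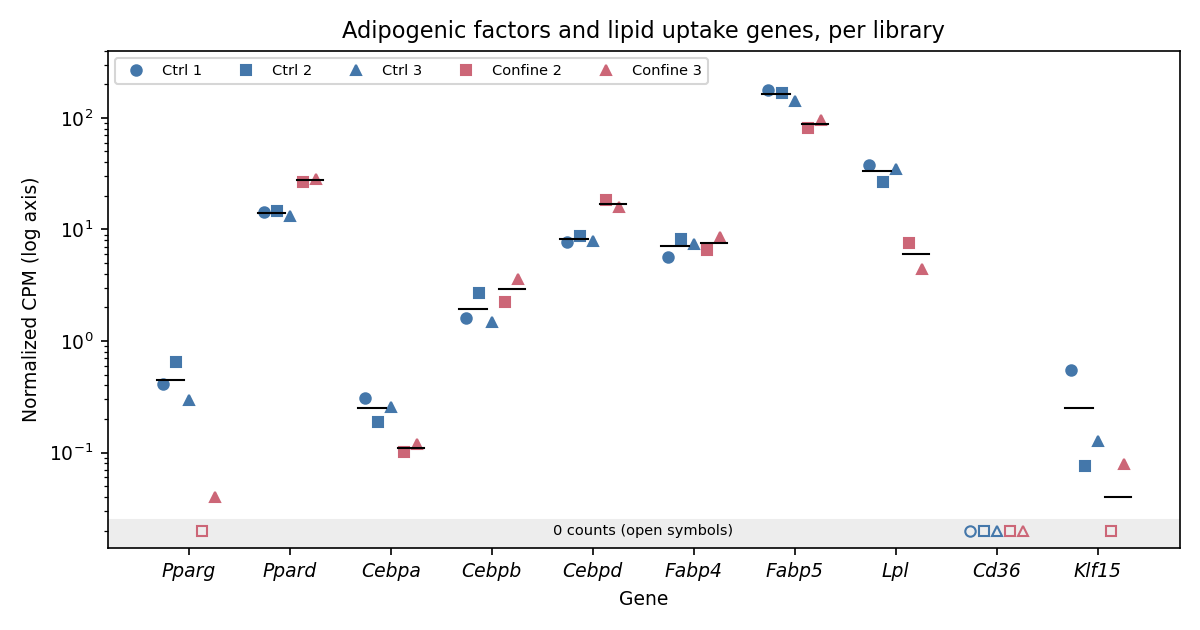
Normalized CPM on a log axis for each of the 10 genes, with a point for every library (3 Ctrl, 2 Confine) open symbols where the count was 0, and a line at each group mean above the band of zeros. Lpl, Fabp5, Pparg and Cebpa, which was not tested, lie lower in both Confine libraries than in any Ctrl library. Ppard and Cebpd lie higher, and Cd36 is at 0 throughout.

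Pparg (ENSMUSG00000000440.12, chr6:115360951-115490399, plus strand) was rare in parental MEFs and had at most 1 count in Confine. It had 12, 17 and 7 counts in Ctrl replicates 1, 2 and 3 and 0 and 1 in Confine replicates 2 and 3. The groups did not overlap, and both Confine libraries were under the floor of 3 counts. In normalized CPM this was 0.452 ± 0.175 in Ctrl (SD, n = 3) and 0.0199 ± 0.0281 in Confine (SD, n = 2). Summed over libraries, 36 counts in Ctrl stood against 1 in Confine, a Ctrl over Confine ratio of 25.0 with an exact 95% interval of 4.21 to 1014, which covers counting error only. The fitted log2 fold change was -4.31 ± 1.10 (SE), and its adjusted p was 0.0076 by edgeR. The fitted size depends on the prior count, since 1 Confine library was at 0. Because the filter kept Pparg through its Ctrl libraries, the fit without that filter, over 27065 genes, is given beside it, with an adjusted p of 0.00374 by edgeR. That fit gave smaller adjusted p for the other called members too, for example 5.08e-23 for Lpl by edgeR. The smaller value for Pparg is therefore no independent support for its call. Without Confine replicate 2, the library at 0, the value was -3.36 with an adjusted p of 0.131, so the call was lost. Pparg was not tested without Ctrl replicate 1 or Ctrl replicate 2, because it then failed the filter.

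Ppard (ENSMUSG00000002250.16, chr17:28232700-28301474, plus strand), the ubiquitous fatty acid receptor, was higher in Confine. It had 416, 391 and 312 counts in Ctrl and 794 and 717 in Confine, which gave 14.4, 14.8 and 13.3 normalized CPM against 26.8 and 28.5. Every Confine library was above every Ctrl library. The level was 14.1 ± 0.781 in Ctrl (SD, n = 3) and 27.6 ± 1.16 in Confine (SD, n = 2), a 1.95-fold difference with a log2 fold change of 0.97 ± 0.19 (SE, 95% interval 0.58 to 1.36) and an adjusted p of 0.000782 by edgeR. Over 14 alternatives of the processing the log2 fold change ran from 0.758 to 1.01, with adjusted p from 2.57e-05 to 0.0219.

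Cebpa, Cebpb and Cebpd encode C/EBP factors with related DNA-binding domains. Cebpd (ENSMUSG00000071637.5, chr16:15887286-15891031, plus strand) was higher in Confine. It had 225, 233 and 184 counts in Ctrl and 540 and 401 in Confine, or 7.77, 8.81 and 7.83 against 18.2 and 15.9 normalized CPM. The groups stood apart, with 8.13 ± 0.582 in Ctrl (SD, n = 3) and 17.1 ± 1.64 in Confine (SD, n = 2). The fold was 2.1, the log2 fold change 1.07 ± 0.21 (SE, 95% interval 0.64 to 1.5) and the adjusted p 0.000786 by edgeR, and over 14 alternatives the log2 value ran from 0.86 to 1.16. Cebpd shares 562 exon bases with Spidr on the opposite strand, and Spidr rose as well, with a log2 fold change of 1.41 ± 0.21 (SE, adjusted p = 5.22e-05 by edgeR). Spidr had 610, 384 and 465 counts in Ctrl and 1236 and 1426 in Confine. The library kit keeps the strand, but whether the counting used it is not given in the sources used here, so the part of Spidr reads in the Cebpd count was not tested.

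Cebpb (ENSMUSG00000056501.3, chr2:167688915-167690418, plus strand), the other early factor, did not pass the test. It had 47, 72 and 35 counts in Ctrl and 66 and 90 in Confine, which gave 1.62, 2.72 and 1.49 normalized CPM against 2.23 and 3.57. Ctrl replicate 2 was above Confine replicate 2, so the groups overlapped. The log2 fold change was 0.57 ± 0.36 (SE), its 95% interval was -0.19 to 1.33, and the adjusted p was 0.288 by edgeR. The interval includes the log2 fold change of Cebpd. Cebpb shares 312 exon bases with Tmem189 on the opposite strand, which rose with a log2 fold change of 1.29 ± 0.21 (SE, adjusted p = 1.81e-04 by edgeR), and the same limit of strand applies.

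Cebpa (ENSMUSG00000034957.10, chr7:35119293-35121928, plus strand), the late partner of PPARγ, was too low to pass the filter. It had 9, 5 and 6 counts in Ctrl and 3 and 3 in Confine. The groups did not overlap in normalized CPM, but the Confine libraries were at the floor. Without the filter it did not pass the test (adjusted p = 0.577 by edgeR). The ratio of Ctrl to Confine over the summed 20 and 6 counts was 2.31, with an exact 95% interval of 0.896 to 7.04, which includes no difference. Cebpa shares 51 exon bases with the antisense transcript Gm45091, which had 5, 12 and 5 counts in Ctrl and 11 and 1 in Confine.

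Klf15 (ENSMUSG00000030087.11, chr6:90462576-90475238, plus strand), a Krüppel-like factor, was also too low to pass the filter. It had 16, 2 and 3 counts in Ctrl and 0 and 2 in Confine. Most Ctrl counts came from Ctrl replicate 1, and the other libraries were all at or under the floor. Without the filter it did not pass the test (adjusted p = 0.190 by edgeR). The ratio of Ctrl to Confine over the summed 21 and 2 counts was 7.29, with an exact 95% interval of 1.78 to 64.1 for counting error only.

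Lpl (ENSMUSG00000015568.16, chr8:68880491-68907448, plus strand) was lower in Confine and had the smallest adjusted p of the tested members. It had 1102, 698 and 827 counts in Ctrl and 225 and 111 in Confine, or 38.1, 26.4 and 35.2 normalized CPM against 7.60 and 4.41. The lowest Ctrl library was above the highest Confine library, and the Confine libraries also differed from each other. The level was 33.2 ± 6.09 in Ctrl (SD, n = 3) and 6.0 ± 2.26 in Confine (SD, n = 2), a Ctrl over Confine fold of 5.50. The log2 fold change was -2.46 ± 0.26 (SE, 95% interval -3.00 to -1.92) and the adjusted p 1.35e-06 by edgeR, and over 14 alternatives it ran from -2.91 to -2.13 with an adjusted p of at most 0.00031.

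Fabp5 (ENSMUSG00000027533.10, chr3:10012548-10016607, plus strand), the epidermal fatty acid binding protein, was the member with the highest level and was lower in Confine. It had 5177, 4426 and 3340 counts in Ctrl and 2407 and 2409 in Confine, which gave 179, 167 and 142 normalized CPM against 81.3 and 95.6. The groups did not overlap. The level was 163 ± 18.8 in Ctrl (SD, n = 3) and 88.5 ± 10.1 in Confine (SD, n = 2), a Ctrl over Confine fold of 1.84, with a log2 fold change of -0.88 ± 0.19 (SE, 95% interval -1.28 to -0.48) and an adjusted p of 0.00201 by edgeR. Without Confine replicate 2 the log2 fold change was -0.764 and the adjusted p 0.0606, so the call was lost. The processed pseudogenes Gm13998, Gm14328 and Gm6166 match Fabp5 at 95% identity or more, and their summed counts of 107, 95 and 70 in Ctrl and 45 and 71 in Confine were small beside those of Fabp5.

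Fabp4 (ENSMUSG00000062515.3, chr3:10204088-10208576, minus strand), the adipocyte and macrophage paralog, did not pass the test. It had 163, 216 and 176 counts in Ctrl and 192 and 217 in Confine, or 5.63, 8.16 and 7.48 normalized CPM against 6.49 and 8.62. The groups overlapped. The log2 fold change was 0.090 ± 0.25 (SE, 95% interval -0.43 to 0.61, adjusted p = 0.84 by edgeR), and its sign changed with the processing. In the same gene cluster on chromosome 3, Fabp9 and Fabp12 had 0 counts in every library, and Pmp2 had 1 count in Ctrl replicate 1 only.

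Cd36 (ENSMUSG00000002944.15, chr5:17781690-17888801, minus strand) had 0 counts in all 5 libraries. A count of 0 allows up to the floor of 3 counts, 0.101 to 0.128 normalized CPM, so no difference was detectable at this depth.

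**Figure D2:**
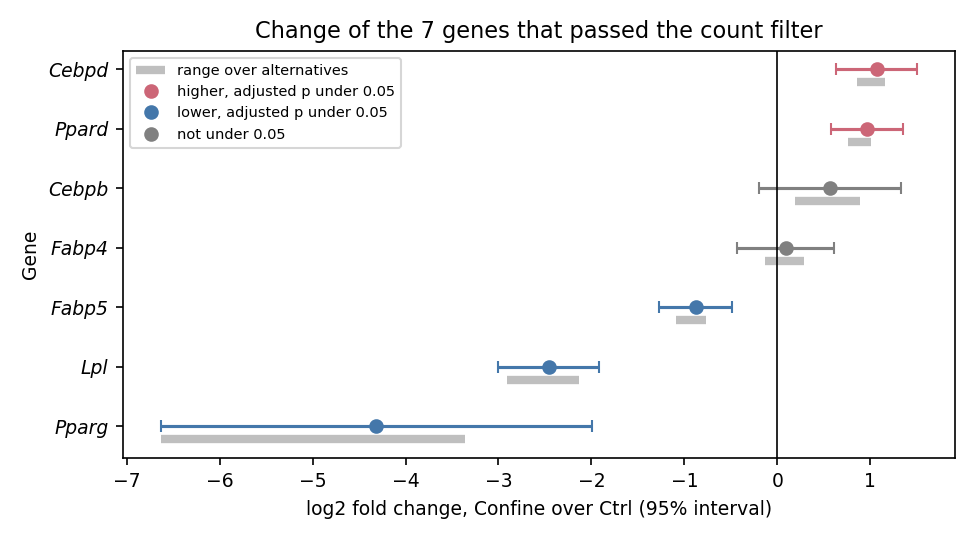
Log2 fold change of Confine over Ctrl for the 7 genes that passed the count filter, with a 95% interval derived from the edgeR test as a bar and the range over the alternatives as a gray band. Lpl, at -2.46, and Pparg, at -4.31, lie farthest from 0, and the intervals of Cebpb and Fabp4 cross 0.

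Levels of different genes were compared per kilobase of exon. In Ctrl the order in normalized CPM per kb was Fabp5 (45.6), Lpl (3.17), Cebpd (2.17), Ppard (1.88), Fabp4 (1.58) and Cebpb (1.29), followed by Pparg (0.153), Cebpa (0.0955) and Klf15 (0.0903). In Confine the order was Fabp5 (24.8), Cebpd (4.56), Ppard (3.68), Cebpb (1.93), Fabp4 (1.68) and Lpl (0.573), followed by Cebpa (0.0418), Klf15 (0.0142) and Pparg (0.00672). In Ctrl the libraries of Ppard and Fabp4, of Fabp4 and Cebpb, of Ppard and Cebpb, and of Pparg, Cebpa and Klf15 overlapped. In Confine those of Cebpb and Fabp4 overlapped, and so did those of Klf15 and Pparg, which had 2 counts and 1 count in all and were both at 0 in Confine replicate 2. Lpl moved from the second to the sixth place, while Fabp5 stayed far above the rest in both groups.

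The shares of each family are given per library as a description. Among the PPARs, per kilobase, Pparg made up 5.40% to 9.78% of the family in Ctrl and 0% to 0.354% in Confine, and Ppard 88.4% to 94.6% and 99.6% to 100%. Ppara was at most 1.77% in Ctrl and 0% in Confine. The C/EBP genes counted were Cebpa, Cebpb, Cebpd, Cebpe and Cebpg. Among these, Cebpd made up 20.01% to 24.3% in Ctrl and 38.1% to 42.0% in Confine. Cebpg, a ubiquitous partner that lacks an activation domain, made up 56.3% to 68.4% and 39.9% to 44.8%. The related factor Ddit3 was left out of this family. At 17.8 normalized CPM per kb in Ctrl and 22.5 in Confine it was above each of them, so all C/EBP shares would be smaller with it. The share of Cebpb overlapped between groups, with 10.4% to 18.7% in Ctrl and 12.8% to 21.3% in Confine. Among the FABPs with counts, Fabp5 held 95.3% to 97.5% in Ctrl and 93.0% to 93.9% in Confine, and Fabp4 2.44% to 4.02% and 5.95% to 6.66%. These shares were not tested, and a share can move because another gene of its family moved. Cebpg itself did not pass the test (log2 fold change -0.37 ± 0.19 SE, adjusted p = 0.186 by edgeR), and neither did Fabp4.

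**Figure D3:**
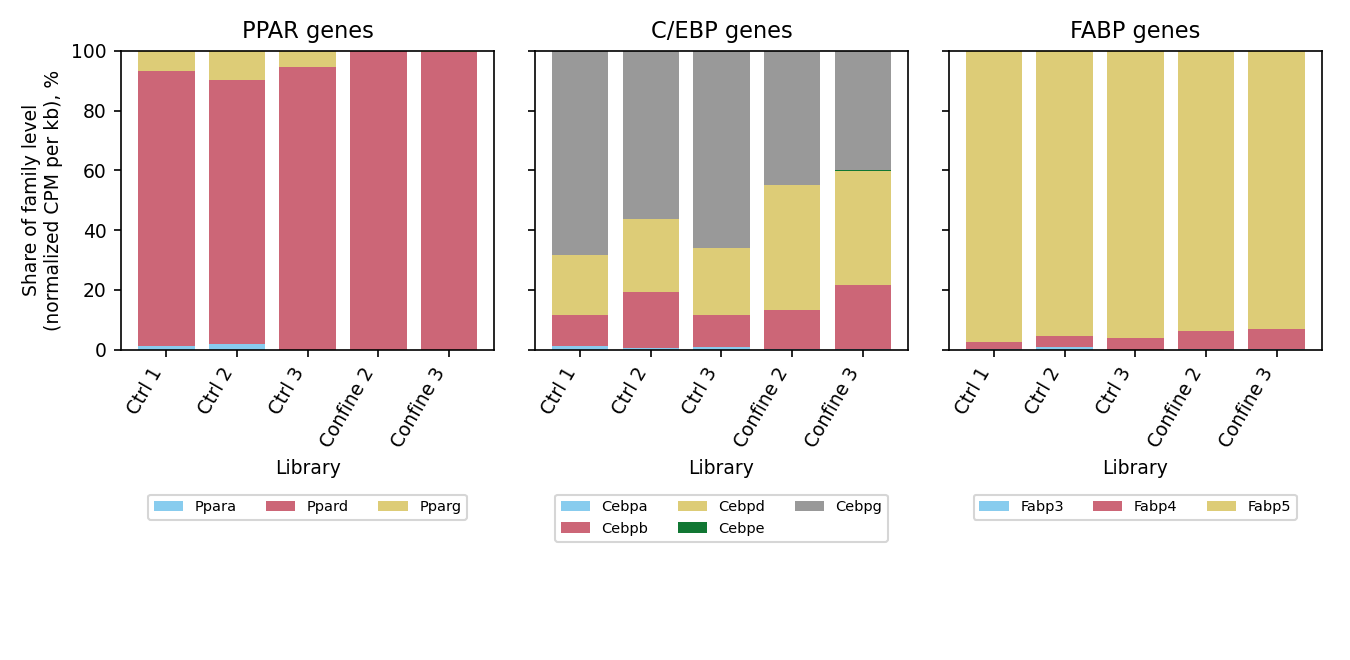
Stacked bars give, for each library, the percent of the family's summed normalized CPM per kb held by each gene shown. The C/EBP bars hold Cebpa, Cebpb, Cebpd, Cebpe and Cebpg, without the related factor Ddit3. Cebpd holds 20.01% to 24.3% of the summed level of these C/EBP genes in Ctrl and 38.1% to 42.0% in Confine. Pparg is visible in Ctrl only, since its share in Confine is at most 0.354%.

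The genes whose pattern over the 5 libraries was most like that of a member were found by the root mean square (RMS) difference of centred log2 CPM, among 11794 tested genes with a mean of at least 50 counts. For Pparg these were Lpar2 (RMS 0.343), a receptor for lysophosphatidic acid, with 312, 269 and 209 counts in Ctrl and 24 and 58 in Confine, and Rassf9 (0.386). For Lpl they were Smpdl3b (0.163), a sphingomyelinase-like membrane enzyme, and Dlx5 (0.169), a homeobox factor of bone formation. For Cebpd they were Iqgap1 (0.0504), a scaffold protein that binds actin, and Evi2a (0.0609). Closeness over 5 libraries that fall in only 2 groups describes mainly the difference between the groups. For Pparg, with 0 and 1 counts in Confine, the log2 CPM there also depends on the prior count. Lpar2 fell less than Pparg by the fit (log2 fold change -2.69 against -4.31).

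Genes of the wider pathway were counted with the same test in 8 lists, which hold 171 distinct genes other than the members. Of these, 115 were tested, 36 were higher and 13 lower in Confine, against 12.8% higher and 10.2% lower among all tested genes. Like the members, the lists were chosen with earlier results of these data known, and no list was tested as a set. Log2 fold changes below are means of Confine over Ctrl with SE, and p is adjusted and comes from edgeR.

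Of 20 relatives and cofactors of PPAR and C/EBP proteins, 16 were tested, 2 were higher and 2 lower, and their median log2 fold change was 0.027. Higher were Nr1h2, the oxysterol receptor LXRβ (0.77 ± 0.21, adjusted p = 0.0108), and Ncoa3, a nuclear receptor coactivator (0.60 ± 0.18, adjusted p = 0.0203). Lower were Ppargc1b, a coactivator of mitochondrial genes (-0.89 ± 0.28, adjusted p = 0.0276), and Rxra, which encodes 1 of the RXR partners of the PPARs (-0.77 ± 0.19, adjusted p = 0.00671). Another RXR gene, Rxrb, did not pass (-0.012 ± 0.18, adjusted p = 0.973 by edgeR). Its level was 42.8 normalized CPM in Ctrl and 42.4 in Confine. Rxra fell from 43.1 ± 2.32 normalized CPM in Ctrl (SD, n = 3) to 25.2 ± 5.22 in Confine (SD, n = 2), and it had 1307, 1152 and 954 counts in Ctrl and 637 and 728 in Confine. Each of these 4 calls was lost without Confine replicate 2, where the adjusted p was 0.0586 for Nr1h2, 0.233 for Ncoa3, 0.336 for Ppargc1b and 0.174 for Rxra by edgeR. Without Confine replicate 3 it was 0.128 for Nr1h2 and 0.0639 for Ncoa3, and without Ctrl replicate 1 it was 0.0876 for Ncoa3 and 0.0918 for Ppargc1b.

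Of 22 genes known to promote adipogenesis, 19 were tested, 6 were higher and 4 lower, and their median log2 fold change was 0.083. The Krüppel-like factors Klf5 and Klf4, which act early and upstream of Pparg and Cebpb, rose. Klf5 went from 6.21 ± 1.94 normalized CPM (SD, n = 3) to 20.1 ± 0.771 (SD, n = 2), a log2 fold change of 1.69 ± 0.24 (adjusted p = 4.78e-05 by edgeR). Klf4 went from 25.5 ± 2.48 to 67.3 ± 4.75, a log2 fold change of 1.40 ± 0.18 (adjusted p = 1.37e-05 by edgeR). Srebf1, a regulator of lipid synthesis, was higher (0.79 ± 0.19, adjusted p = 0.00409), and this call was lost without Confine replicate 3 (adjusted p = 0.0700 by edgeR).

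Among the 4 lower genes of this list, Bmp4, a growth factor that commits precursor cells to the fat lineage, went from 162 ± 32.1 normalized CPM in Ctrl (SD, n = 3) to 69.8 ± 14.4 in Confine (SD, n = 2), a log2 fold change of -1.21 ± 0.21 (adjusted p = 0.000347 by edgeR). Ebf1, an early B cell factor that also acts in fat precursors, was lower (-1.65 ± 0.38, adjusted p = 0.00323), but its groups overlapped, with 9234, 2626 and 8601 counts in Ctrl and 3051 and 1595 in Confine. Igf1, an insulin-like growth factor, was lower as well (-1.14 ± 0.30, adjusted p = 0.0103). Without Confine replicate 3 the adjusted p was 0.0958 for Ebf1 and 0.127 for Igf1 by edgeR.

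Of 21 genes known to inhibit adipogenesis, 19 were tested, 5 were higher and 2 lower, and their median log2 fold change was -0.14. Tgfb1, which encodes a growth factor that blocks fat cell formation, was higher, from 2.47 ± 0.443 normalized CPM in Ctrl (SD, n = 3) to 7.50 ± 2.82 in Confine (SD, n = 2), a log2 fold change of 1.60 ± 0.29 (adjusted p = 0.00052 by edgeR). Sox9, a cartilage factor that represses the C/EBP genes, was higher (0.97 ± 0.19, adjusted p = 0.000991), and so was Klf2, a repressor of Pparg (0.87 ± 0.30, adjusted p = 0.0422). Gli1, a mediator and readout of hedgehog signalling (-1.60 ± 0.46, adjusted p = 0.0169), and Zfp521, a zinc finger repressor of fat fate (-0.69 ± 0.22, adjusted p = 0.0272), were lower. Without Confine replicate 2 the adjusted p by edgeR was 0.0595 for Sox9, 0.150 for Klf2, 0.196 for Gli1 and 0.181 for Zfp521, with log2 fold changes of 0.74, 0.91, -0.86 and -0.64. Klf2 also missed the threshold without Confine replicate 3, Ctrl replicate 1 and Ctrl replicate 3 (adjusted p = 0.216, 0.108 and 0.105 by edgeR), and Zfp521 without Confine replicate 3 and Ctrl replicate 1 (adjusted p = 0.122 and 0.0516).

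Of 21 genes of mature adipocytes, only 6 were tested, 1 was higher and 1 lower, and their median log2 fold change was 0.072. Dgat2, which makes triglyceride from diacylglycerol, had 125, 103 and 73 counts in Ctrl and 514 and 611 in Confine. Its level rose from 3.77 ± 0.616 normalized CPM (SD, n = 3) to 20.8 ± 4.87 (SD, n = 2), a log2 fold change of 2.46 ± 0.23 (adjusted p = 4.43e-07 by edgeR). Plin4, a lipid droplet coat protein, was lower (-0.54 ± 0.19, adjusted p = 0.0432), and this call was lost without Ctrl replicate 1, Ctrl replicate 3, Confine replicate 2 or Confine replicate 3 (adjusted p = 0.0577, 0.0817, 0.234 and 0.210 by edgeR). None of the adipocyte markers given above was among the 6 tested.

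Of 36 genes of fatty acid and lipoprotein uptake, 20 were tested, 7 were higher and 2 lower, and their median log2 fold change was 0.21. Angptl4, a secreted inhibitor of lipoprotein lipase, had 122, 78 and 90 counts in Ctrl and 381 and 283 in Confine, with no overlap. Its log2 fold change was 1.72 ± 0.24 (adjusted p = 3.61e-05 by edgeR), the opposite direction to Lpl. Vldlr, a receptor for triglyceride-rich lipoproteins, was also higher (1.60 ± 0.25, adjusted p = 0.000107). Lmf1, which is needed for the folding of lipoprotein lipase and was named after its values were seen, was higher too (1.11 ± 0.18, adjusted p = 0.000188). Lmf2 (-0.18 ± 0.20, adjusted p = 0.570 by edgeR) and Sel1l (-0.11 ± 0.19, adjusted p = 0.735) of the same list did not pass. Lipc, the hepatic lipase gene, had 0, 0 and 3 counts in Ctrl and 18 and 20 in Confine (adjusted p = 0.00356), and it passed the filter through its Confine libraries alone. Lower were Lipg, the endothelial lipase gene (-1.67 ± 0.36, adjusted p = 0.00196), and Acsl5, which activates long-chain fatty acids (-1.27 ± 0.20, adjusted p = 9.55e-05). Lipg missed the threshold without Confine replicate 2 (-1.16, adjusted p = 0.0609 by edgeR) and Lipc without Confine replicate 3 (adjusted p = 0.0613).

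Of 27 PPAR target genes, 16 were tested, 5 were higher and 11 did not pass, and their median log2 fold change was 0.24. The called genes were 31.25% of those tested, against 23.0% of all tested genes, and with library size alone 3 were called. The list holds no member, so it leaves out Lpl, which was lower, Fabp4, which did not pass, and Cd36, which had no count. Angptl4, given above, is on this list too. Plin2, which coats lipid droplets in most cells, went from 291 ± 45.5 normalized CPM in Ctrl (SD, n = 3) to 570 ± 47.9 in Confine (SD, n = 2), a log2 fold change of 0.97 ± 0.18 (adjusted p = 0.000729 by edgeR).

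The last lists hold genes known to respond to glucocorticoids, a hormone class used to start adipogenesis, and acute phase genes known to be driven by C/EBP factors. Whether C/EBP factors moved the acute phase genes here was not tested. Of 16 glucocorticoid-responsive genes, 12 were tested, 7 were higher and 1 lower, and their median log2 fold change was 0.87. Errfi1, a feedback inhibitor of EGF receptor signalling, had 239, 288 and 199 counts in Ctrl and 2563 and 2082 in Confine (3.20 ± 0.19, adjusted p = 1.27e-09), and Mt2, a metallothionein, had 15, 21 and 15 against 506 and 368 (4.60 ± 0.28, adjusted p = 1.34e-09). Ddit4, an inhibitor of mTOR signalling, was higher (1.40 ± 0.21, adjusted p = 8.36e-05). Fkbp5, a chaperone that is a standard readout of the glucocorticoid receptor, was lower (-0.89 ± 0.24, adjusted p = 0.0118), though not without Confine replicate 2 (-0.68, adjusted p = 0.186 by edgeR). The other 4 tested genes did not pass, among them Tsc22d3 and Sgk1. The genes that rose most are also known to respond to other signals, such as metals and stress, and which signal moved them was not tested.

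Of 10 acute phase genes, 9 were tested, 5 were higher and 1 lower, and their median log2 fold change was 1.65. Lcn2, an iron carrier of innate defence, went from 13.2 ± 3.50 normalized CPM in Ctrl (SD, n = 3) to 209 ± 0.110 in Confine (SD, n = 2), a log2 fold change of 3.98 ± 0.22 (adjusted p = 3.06e-10 by edgeR). Saa3, a serum amyloid, was higher (2.44 ± 0.21, adjusted p = 1.46e-07). Serpina3n, a protease inhibitor, was higher at low counts (1.75 ± 0.51, adjusted p = 0.0182), and its call was lost without Confine replicate 2 or Confine replicate 3 (adjusted p = 0.0643 and 0.148 by edgeR). Il1rn, the interleukin-1 receptor antagonist, moved the other way, from 255 ± 71.0 to 27.1 ± 8.20 normalized CPM (-3.23 ± 0.27, adjusted p = 8.32e-08 by edgeR).

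**Figure D4:**
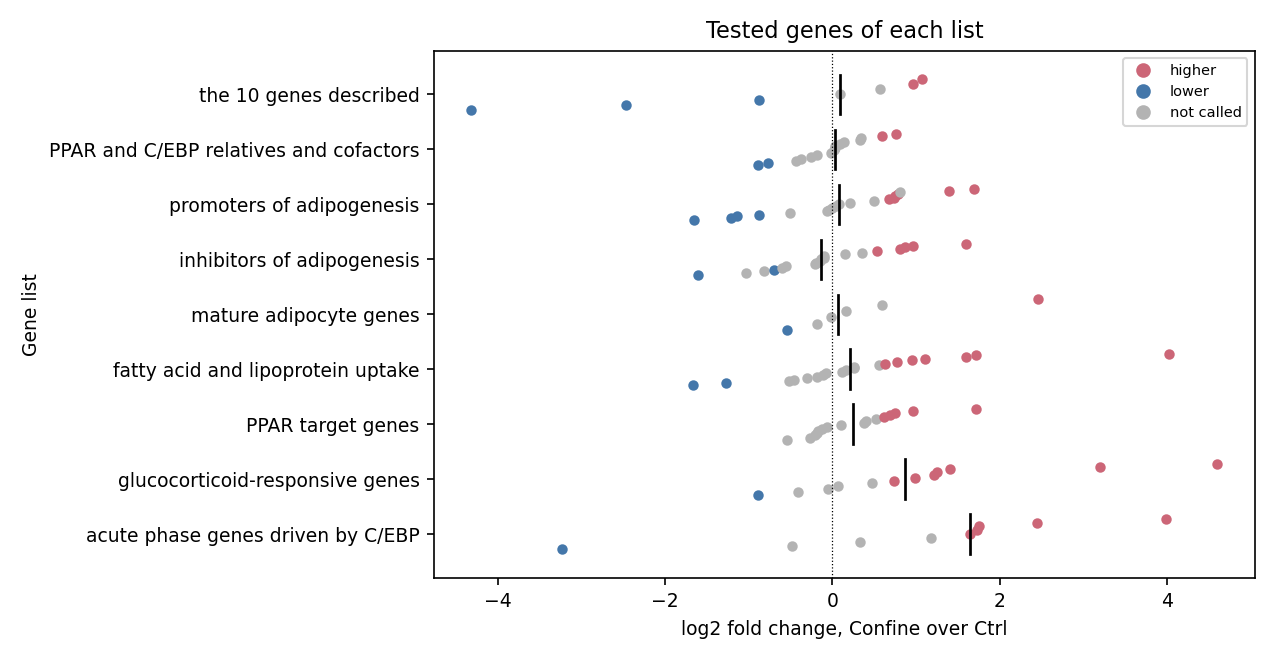
Log2 fold change of Confine over Ctrl for every tested gene of the members and of the 8 lists, with a vertical tick at each list's median, and color for genes at an adjusted p under 0.05 (red higher, blue lower, gray not called). The acute phase list, with a median of 1.65, and the glucocorticoid-responsive list, with a median of 0.87, lie farthest to the right, and the members spread from -4.31 for Pparg to 1.07 for Cebpd.

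Markers of other cell types were read beside these values. Of 12 macrophage markers 5 were tested, 3 were higher and 1 lower, and their sum was 16.0 to 18.5 normalized CPM in Ctrl and 36.8 to 41.8 in Confine. Without Confine replicate 2 only Cd68 was called higher, since Cd14 and Csf1r then had adjusted p of 0.0683 and 0.0667 by edgeR, and Csf1r also missed the threshold without Ctrl replicate 2, Ctrl replicate 3 or Confine replicate 3 (0.0517, 0.114 and 0.314). Cd68 rose (2.67 ± 0.25, adjusted p = 3.94e-07 by edgeR) and Lyz2 fell (-2.64 ± 0.37, adjusted p = 3.53e-05), while Adgre1 and Tyrobp were at 0 and Ptprc did not exceed 2 counts. Of 10 endothelial markers 3 were tested and 1, Vwf, was higher (2.64 ± 0.46, adjusted p = 0.00032 by edgeR). Vwf had 7, 17 and 7 counts in Ctrl and 72 and 64 in Confine, and it passed the filter through its Confine libraries. The endothelial sum was 4.93 to 6.88 in Ctrl and 6.59 to 9.61 in Confine, with Emcn, Tie1 and Cldn5 at 0. None of 8 epithelial markers was tested, and their sum was 0.311 to 0.605 in Ctrl and 0.169 to 0.675 in Confine. Macrophages express Fabp4 and Lpl, and the part of these markers in the values of the members was not tested.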

How the data were processed

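The members and lists were chosen with earlier results of these data known. The authors sequenced polyadenylated RNA and deposited raw counts per gene for 3 Ctrl and 3 Confine columns. The submitters' processing notes name Trim Galore 0.6.10, HISAT2 2.1.0, SAMtools 1.5, featureCounts and build mm10, and the strand setting of the counting is not given in the sources used here. In the study's source data the repeated column is the second of the Confine columns, which gives it the name Confine replicate 2. The 3 against 3 design planned became 3 against 2.

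Genes were named from GENCODE M21 (GRCm38), which holds 54587 of the 55335 IDs with their version and 55154 without. In R 4.3.3, edgeR 4.0.16 kept 15881 genes (filterByExpr), applied TMM scaling (factors 0.9103 to 1.0831) and fitted a quasi-likelihood model to 5 libraries without a replicate block (residual degrees of freedom 3, prior median 14.8), with Benjamini-Hochberg adjustment over all tested genes. The steps were tested on simulated data. Called means an adjusted p under 0.05. Alternatives were DESeq2 1.42.0, which the study used, limma-voom (limma 3.58.1), other scalings and filters, the block, and leaving out each library. Besides the members, named were up to 3 called genes per list and direction with the largest log2 fold change and at least 20 counts in 1 library, and for the 3 members that changed most the 2 genes of most similar pattern. A gene selected by this rule is not reported here. Near-identical copies were searched with blastn at 95% identity. Exact intervals and floors reflect counting error alone: without molecular identifiers, reads may repeat a molecule.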

Additional observations from a re-analysis of the deposited data

How the results depend on the processing

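The 7 tested members kept their direction under the alternatives run except Fabp4, whose log2 fold change was -0.12 with library size alone, -0.058 without Ctrl replicate 1, -0.129 without Confine replicate 3 (leaving out 1 library, from -0.129 to 0.2843) and -0.065 with the replicate block and the identical library as number 2. Calls of Pparg (-3.36) and Fabp5 (-0.764) were lost without Confine replicate 2. Pparg was not tested with at least 10 counts required in every library, with the identical columns as 2 samples, or without Ctrl replicate 1 or 2, since it failed the filter there. Leaving out 1 library, genes called higher ran from 1196 to 2411 and lower from 850 to 2015 (2035 and 1619 with all), members higher stayed at 2 and members lower ran from 1 to 3. Called genes ran from 0 to 4 for the relatives and cofactors, 4 to 11 for promoters, 2 to 8 for inhibitors, 1 to 2 for mature adipocyte genes and 2 to 5 for PPAR targets. Fits with 1 Confine library assume that it varies like the Ctrl libraries.

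Library size alone moved the median of all genes from -0.0021 to -0.21 and gave 1444 genes higher and 2805 lower, with 3 PPAR targets called. The identical columns counted as 2 samples gave 2456 genes lower, and no filter beyond 1 count left 1 mature adipocyte gene. With an absolute log2 fold change above 1.5 required, 777 genes were higher and 494 lower, and 0 members were higher.

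The replicate numbers were not shown to pair the libraries (correlation of same-numbered deviations -0.053, or 0.052 with the identical library as number 1). The replicate block called 1448 genes higher and 1080 lower, 2 relatives, 1 mature adipocyte gene and 2 PPAR targets, and 2640 and 2293 genes and 7 relatives with that library as number 1, an alternative chosen after seeing the data. It changed the call of no member. Of 32 list genes that the naming rule selected, 15 were called without each library in turn, and none changed sign. Cebpa and Klf15 failed the count filter and did not pass the test without it, and Cd36 had no count.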
